A study of Mus musculus with 6 samples.

Results

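Txnip, the thioredoxin and peroxiredoxin genes Txn1, Txnrd1 and Prdx1, and the glutathione and NRF2-linked genes Gpx1, Gpx4, Gclc, Gclm, Nqo1 and Slc7a11 are described here across panobinostat-treated and vehicle-treated mouse leukemia cells. The 10 genes were chosen by name as parts of the thioredoxin and glutathione defense, and matched by Entrez gene ID to 10 of the 27179 genes in the deposited count table. All 10 passed the filter on low counts, which kept 12916 genes. The cells were an acute myeloid leukemia of C57BL/6 mice, named A/E9a;NRASG12D in the labels after a short RUNX1-RUNX1T1 fusion and a mutant NRAS. Mice received panobinostat, an inhibitor of histone deacetylases, or vehicle for 3 days, and GFP-positive viable cells were then sorted from the spleen. Each group had 3 RNA-seq libraries. The leukemia, the strain and the sort were the same in both groups, and the name of the deposited count table calls the tumor cells WT. The sources used here do not give the dose, the age of the mice, or whether the line is 1 clone or was pooled over mice. Whether each library is a separate animal is not stated, so p-values measure only how these libraries vary, which may be technical variation.

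Cells remove peroxides through a pair of parallel thiol systems. In the first, thioredoxin passes electrons from NADPH, by way of thioredoxin reductase, to peroxiredoxins, and TXNIP binds reduced thioredoxin and holds it inactive. In the second, cystine enters through the SLC7A11 exchanger, glutamate-cysteine ligase makes the first bond of glutathione, and glutathione peroxidases spend glutathione to reduce peroxides. The transcription factor NRF2, encoded by Nfe2l2, switches on many genes of both systems through antioxidant response elements. Txnip is not a typical member of that program: it is an alpha-arrestin gene driven by glucose through the factors MondoA and Mlx, which bind carbohydrate response elements.

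Promoters are shown for Txnip, the gene with the largest change of the 10, and for Gclm and Prdx1, which hold the same NRF2 motif and moved in opposite directions. The sequences are the 250 bases before the start site of the RefSeq promoter table on GRCm38.p6, plus strand, read 5′ to 3′, at chr3:96557707-96557956 for Txnip, chr3:122245307-122245556 for Gclm and chr4:116685349-116685598 for Prdx1. Capitals mark a carbohydrate response element form (a pair of CACGNG boxes 5 bases apart) in Txnip, and the antioxidant response element core TGACNNNGC, here on the minus strand, in Gclm and Prdx1.
Txnip: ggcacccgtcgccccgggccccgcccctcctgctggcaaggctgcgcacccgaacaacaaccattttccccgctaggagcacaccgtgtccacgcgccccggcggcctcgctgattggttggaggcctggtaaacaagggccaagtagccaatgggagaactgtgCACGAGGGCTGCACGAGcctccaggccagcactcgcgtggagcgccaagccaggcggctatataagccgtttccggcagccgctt
Gclm: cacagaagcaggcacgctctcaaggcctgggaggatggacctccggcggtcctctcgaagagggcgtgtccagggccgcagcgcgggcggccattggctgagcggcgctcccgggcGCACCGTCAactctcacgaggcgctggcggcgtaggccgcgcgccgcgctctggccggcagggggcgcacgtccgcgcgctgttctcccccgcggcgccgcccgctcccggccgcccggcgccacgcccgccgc
Prdx1: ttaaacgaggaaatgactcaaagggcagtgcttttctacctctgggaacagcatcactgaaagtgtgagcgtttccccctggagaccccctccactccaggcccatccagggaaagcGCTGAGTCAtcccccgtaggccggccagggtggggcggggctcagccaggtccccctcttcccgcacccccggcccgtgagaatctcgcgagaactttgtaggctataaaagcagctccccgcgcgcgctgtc
The capitals begin 85 bases before the start site in Txnip, 134 bases before it in Gclm and 133 bases before it in Prdx1. For Gclm that start site, at position 122245557, lies inside the RefSeq gene span given below.

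RefSeq windows of 300 bases, from 250 before to 50 after a start site, were at hand for 9 of the 10 genes, with Gclc as the exception, and motifs were searched on both strands. The paired-box form was found in 16 of 32851 windows of all genes (0.0487%) and, of the 9, in Txnip. The antioxidant core was found in 12.4% of all windows and, of the 9 genes, in Gclm, Prdx1 and 1 of 3 windows of Txnrd1. The E-box CACGTG was in 7.15% of all windows and in none of the windows of these 9 genes. The NRF2 core was thus held by a gene that rose, a gene that fell and a gene that was not called. A match is a description of the letters, and no match says nothing on elements outside these windows.

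Panobinostat-treated libraries had 25794869 to 32571961 counts and vehicle libraries 27259492 to 29548544. Libraries are called by the leading number of their column, panobinostat 1, 5 and 6 and vehicle 2, 3 and 4. All levels below are CPM, each count divided by its library total after TMM scaling, and 1 count was worth 0.0315 to 0.0403 CPM. No library was a duplicate of another. Markers of mast cells and basophils summed to 1950 to 4562 CPM with panobinostat and 2189 to 2766 CPM with vehicle. Those of neutrophils summed to 2.54 to 9.18 CPM and 4.62 to 10.2 CPM, and those of T and NK cells to 3.85 to 16.3 CPM and 5.11 to 11.8 CPM. Sums of B cell markers also overlapped, at 3.91 to 7.04 CPM and 2.78 to 5.53 CPM. The sums lay apart for the other lists. Red pulp and other macrophage markers, Hmox1 among them, summed to 34.6 to 91.1 CPM with panobinostat, against 23 to 33.4 CPM with vehicle. The 13 erythroid markers found summed to 52180, 26424 and 23374 CPM in panobinostat libraries 1, 5 and 6, against 5299 to 6465 CPM with vehicle. Dendritic cell markers summed to 181 to 263 CPM with panobinostat, against 88.4 to 98.4 CPM with vehicle, and monocyte markers to 26.3 to 38.6 CPM, against 13.8 to 16.5 CPM. Bst2 alone held 154 to 236 CPM of the dendritic sum with panobinostat and 71.2 to 87.1 CPM with vehicle. Ccr2 held 13.3 to 28.8 CPM and 8.4 to 9.86 CPM of the monocyte sum. Of 5 tested dendritic markers (8 listed) 3 rose (60%), and of 6 tested monocyte markers (7 listed) 2 rose (33.3%), against 21.0% of all genes called. Fcgr1, which rose beside Ccr2, held 5 to 8 counts per vehicle library and 22 to 37 per panobinostat library. It thus passed the filter on low counts through the panobinostat libraries. Stromal and endothelial markers summed to 12.7 to 21.1 CPM with panobinostat, against 2.09 to 2.66 CPM with vehicle. Of the 8 listed, only 3 (Pecam1, Kdr and Pdgfrb) passed the filter on low counts. All 3 rose, where 21.0% of all genes were called. The part of such cells in the results below was not tested. In bulk RNA, fewer cells of a type and less RNA per cell cannot be told apart.

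The comparison asked how these defense genes differed in leukemia cells after panobinostat. Of the 10 genes, 4 rose (Txnip, Gclm, Nqo1 and Gpx4) and 2 fell (Slc7a11 and Prdx1), while Txn1, Txnrd1, Gclc and Gpx1 did not pass. The test was edgeR's quasi-likelihood F test with Benjamini-Hochberg adjustment over all 12916 genes, and a gene is called at an adjusted p under 0.05. Over all genes 21.0% were called, 11.3% higher and 9.72% lower, and the median log2 fold change was 0.01, as it was for the 10. The groups did not overlap in 8 of the 10, against 44.6% of all genes. The count of calls among the 10 changed when 1 library was left out, which also leaves fewer libraries in the test. Whether the library itself or the smaller group changed the count was not tested. Leaving out vehicle library 4 gave 2 higher and 0 lower genes, and leaving out vehicle library 2 gave 3 and 0. Without vehicle library 3 or panobinostat library 5 there were 3 and 1. Leaving out panobinostat library 6 gave 4 higher and 1 lower, and leaving out panobinostat library 1 gave 4 and 3. Over all genes there were 2715 calls with all 6 libraries, 438 when vehicle library 4 was left out, 609 for vehicle library 2, 1259 for vehicle library 3, 1637 for panobinostat library 5, 2086 for panobinostat library 6 and 4056 for panobinostat library 1. With scaling by library size alone, which moved the median of all genes to -0.10, the 10 held 3 higher and 4 lower genes.

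**Figure D1:**
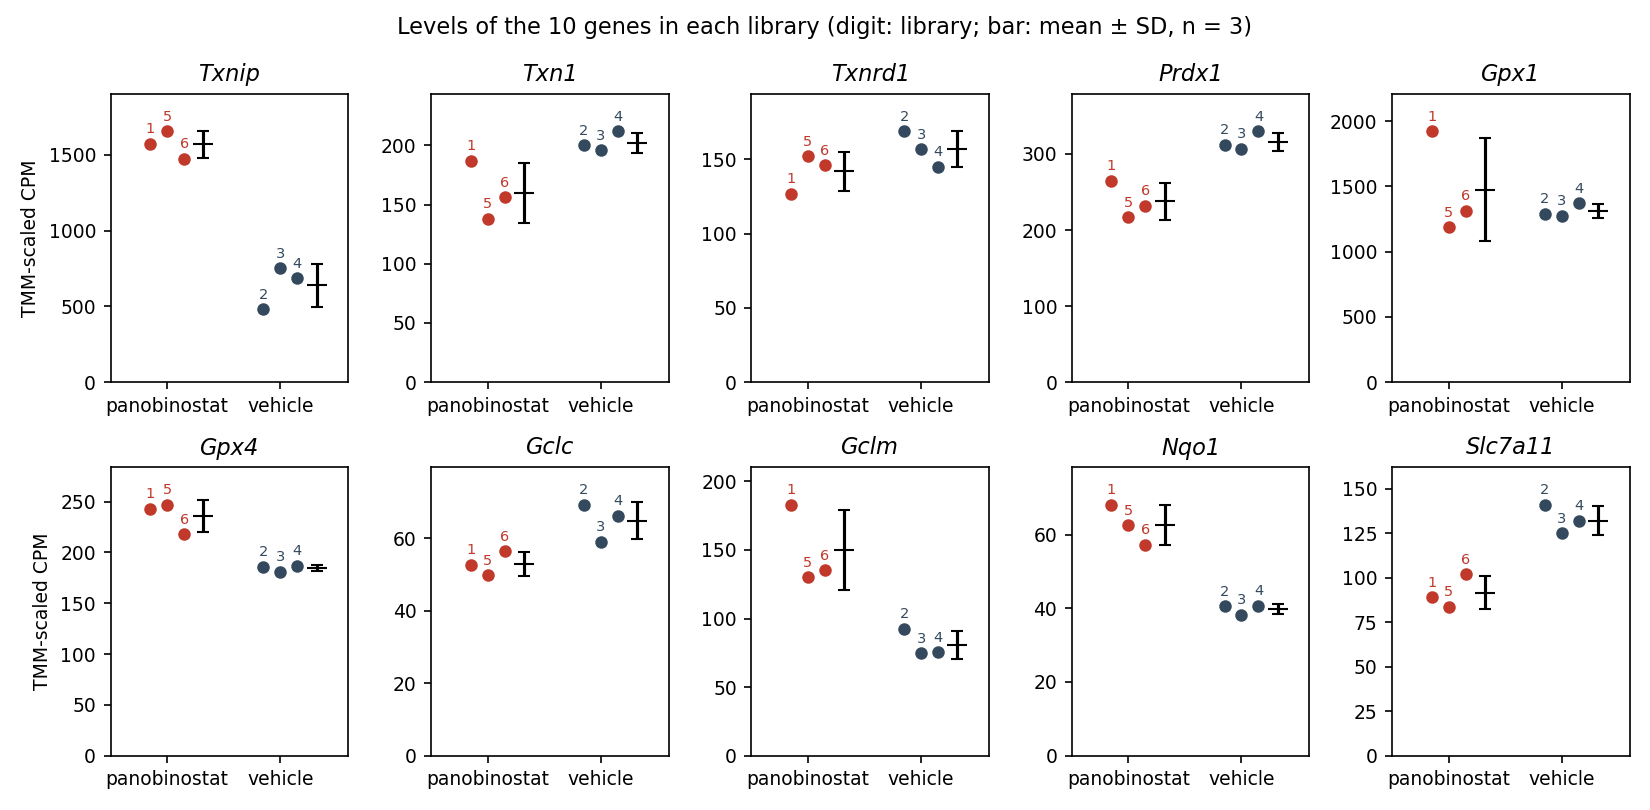
TMM-scaled CPM (vertical axes, from 0) of each of the 10 genes in the panobinostat libraries (red, left) and vehicle libraries (dark, right), with the library number above each point and the mean ± SD beside it (n = 3). Txnip lies between 1474 and 1656 CPM in all panobinostat libraries and at most 750 CPM in all vehicle libraries, while Gpx1 stands out in panobinostat library 1 alone.

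Txnip, the inhibitor of thioredoxin (Entrez gene 56338; GRCm38 chromosome 3, 96557957 to 96561857), had 1573, 1656 and 1474 CPM in panobinostat libraries 1, 5 and 6, and 481, 750 and 686 CPM in vehicle libraries 2, 3 and 4. Every treated library lay far above every vehicle library, and vehicle library 2 was the lowest of the 6. The mean was 1568 ± 91.5 CPM with panobinostat and 639 ± 141 CPM with vehicle (SD, n = 3 each), 2.45-fold higher (log2 fold change 1.30 ± 0.17 SE, edgeR adjusted p = 0.0054). The counts behind these values were 41078 to 48238 per panobinostat library and 14873 to 21139 per vehicle library, so counting error is small beside the spread between libraries. Txnip was called under all 14 alternatives tried, at 2.17-fold to 2.68-fold. Gm15441, an antisense gene, overlaps 19.4% of the annotated exon bases of Txnip, and the sources used here do not name the strand setting of the counting. Gm15441 held 17 to 29 counts per panobinostat library and 9 to 15 per vehicle library, and did not pass (edgeR adjusted p = 0.13).

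Txn1, the cytosolic thioredoxin that TXNIP binds (Entrez gene 22166; chromosome 4, 57943373 to 57956411), had 187, 138 and 156 CPM in panobinostat libraries 1, 5 and 6, and 200, 196 and 212 CPM in vehicle libraries 2, 3 and 4. All treated values lay below all vehicle values, with library 1 the closest. The difference did not pass (log2 fold change -0.34 ± 0.12 SE, 95% interval -0.63 to -0.05 for this gene alone, edgeR adjusted p = 0.095). It passed without panobinostat library 1 (edgeR adjusted p = 0.011, log2 fold change -0.46) and with scaling by library size alone (0.035). A processed copy, Txn-ps1, is annotated, and reads of such copies may be shared with Txn1. Txnrd1, the selenium-containing reductase that recharges thioredoxin (Entrez gene 50493; chromosome 10, 82833951 to 82897724), had 127, 152 and 146 CPM with panobinostat and 169, 157 and 145 CPM with vehicle. The groups overlapped, and the log2 fold change was -0.15 (95% interval -0.40 to 0.10, edgeR adjusted p = 0.34).

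The ratio of Txnip to Txn1 RNA can be compared inside each library, where library scaling cancels. It is a ratio of read counts, not corrected for transcript length, and does not measure protein. Txnip had 8.39, 12.0 and 9.46 reads for each Txn1 read in panobinostat libraries 1, 5 and 6, and 2.41, 3.83 and 3.24 in vehicle libraries 2, 3 and 4. This ratio was 3.17-fold higher with panobinostat, and its ranges were apart. Against Txnrd1 the ratio of Txnip reads was 11.1 ± 1.15 with panobinostat and 4.11 ± 1.1 with vehicle (SD, n = 3 each). A 2-sided exact permutation test over 3 and 3 libraries gave p = 0.1 for each of these ratios, the smallest value this design allows. All treated values lay above vehicle for Txnip and below for Txn1, so the ratio of Txnip to Txn1 had to lie apart. Its p adds no support.

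Prdx1, an abundant cytosolic peroxiredoxin that thioredoxin reduces (Entrez gene 18477; chromosome 4, 116685599 to 116700000), had 265, 217 and 232 CPM in panobinostat libraries 1, 5 and 6, and 312, 307 and 330 CPM in vehicle libraries 2, 3 and 4. It fell to 238 ± 24.4 CPM with panobinostat, against 316 ± 12 CPM with vehicle (SD, n = 3 each), a log2 fold change of -0.41 ± 0.10 SE (edgeR adjusted p = 0.031). The call was lost when any 1 vehicle library or panobinostat library 5 or 6 was left out (edgeR adjusted p from 0.077 to 0.13), while the log2 fold change stayed between -0.52 and -0.35 under all 14 alternatives. Srxn1, sulfiredoxin, repairs over-oxidized peroxiredoxins and moved the other way. It had 13.6, 23.8 and 14.9 CPM with panobinostat and 2.84, 4.86 and 3.91 CPM with vehicle, 4.51-fold higher (edgeR adjusted p = 0.0056). Srxn1 reads per Prdx1 read averaged 0.0752 ± 0.0305 with panobinostat and 0.0123 ± 0.00337 with vehicle (SD, n = 3 each; exact permutation p = 0.1, the smallest possible). That p was fixed by the levels above, since Srxn1 was higher and Prdx1 lower in every treated library, and adds no support.

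Slc7a11, the cystine-importing chain of the exchanger (Entrez gene 26570; chromosome 3, 50364936 to 50499087), had 88.9, 83.7 and 102 CPM in panobinostat libraries 1, 5 and 6, and 141, 125 and 132 CPM in vehicle libraries 2, 3 and 4. The groups were apart, and Slc7a11 fell to 91.5 ± 9.34 CPM with panobinostat, against 132 ± 8.07 CPM with vehicle (SD, n = 3 each). This was 1.45-fold lower (log2 fold change -0.53 ± 0.10 SE, edgeR adjusted p = 0.015), and the call was lost when vehicle library 2 (0.064) or 4 (0.073) was left out. Its partner Slc3a2, the heavy chain that anchors several amino acid transporters, was at 226 to 256 CPM with panobinostat and 229 to 262 CPM with vehicle, with an edgeR adjusted p of 0.81. Slc7a11 reads per Slc3a2 read were 0.391 ± 0.0623 with panobinostat and 0.549 ± 0.0643 with vehicle (exact permutation p = 0.1, the smallest possible).

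The pair of subunits of glutamate-cysteine ligase separated. Gclm, the modifier subunit that raises the efficiency of the enzyme (Entrez gene 14630; chromosome 3, 122245487 to 122267215), had 183, 130 and 135 CPM in panobinostat libraries 1, 5 and 6, and 92.6, 74.8 and 75.3 CPM in vehicle libraries 2, 3 and 4. All treated libraries lay above all vehicle libraries, with panobinostat library 1 the highest. Gclm rose 1.85-fold (log2 fold change 0.89 ± 0.16 SE, edgeR adjusted p = 0.012), 1.64-fold without panobinostat library 1 (0.0058), and it missed the threshold without vehicle library 4 (0.069). Gclc, the catalytic subunit (Entrez gene 14629; chromosome 9, 77754535 to 77794489), had 52.6, 49.7 and 56.4 CPM with panobinostat and 69.2, 59.0 and 66.1 CPM with vehicle. Its treated values lay below its vehicle values without passing (log2 fold change -0.29 ± 0.10 SE, edgeR adjusted p = 0.073; 0.033 with scaling by library size alone). Gclm reads per Gclc read were 3.49, 2.62 and 2.40 in panobinostat libraries 1, 5 and 6, and 1.34, 1.27 and 1.14 in vehicle libraries 2, 3 and 4. The ratio was 2.25-fold higher with panobinostat (exact permutation p = 0.1, the smallest possible). With all treated values above vehicle for Gclm and below for Gclc, the ratio had to lie apart. Its p therefore adds no support. In GENCODE M21, 4.71% of the exon bases of Gclm overlap an opposite-strand transcript and 3.88% a same-strand pseudogene.

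**Figure D2:**
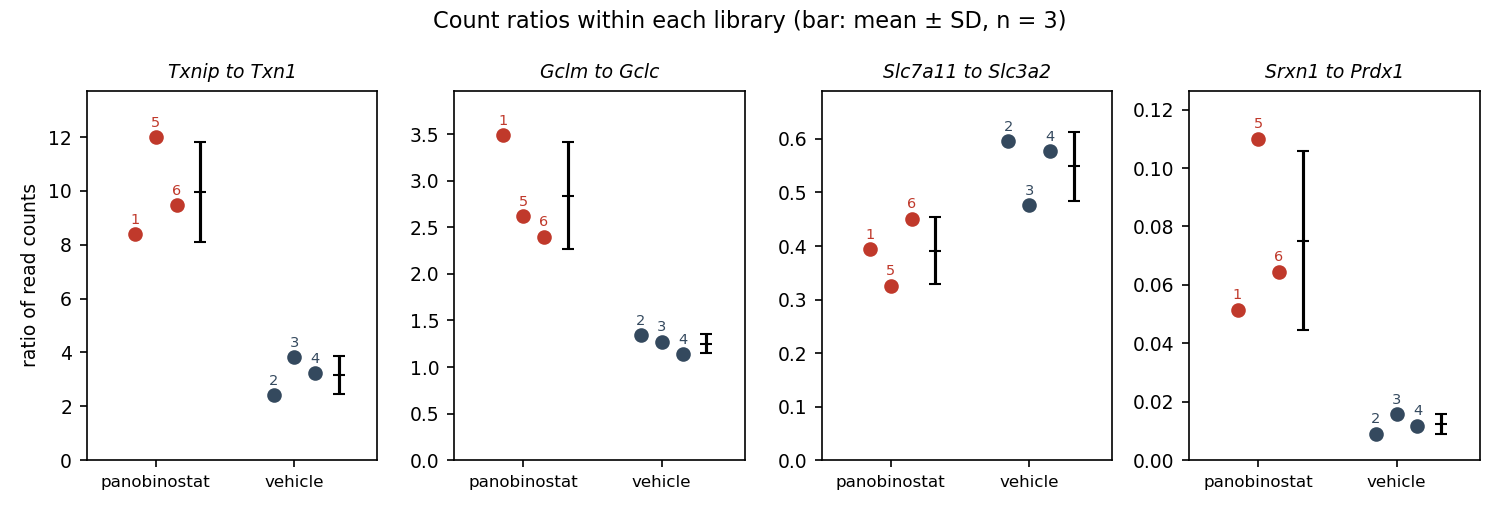
Ratios of read counts of gene pairs within each library (vertical axes, from 0), panobinostat left and vehicle right, with the library number above each point and the mean ± SD beside it (n = 3). The Txnip to Txn1, Gclm to Gclc and Srxn1 to Prdx1 ratios are higher in every panobinostat library than in any vehicle library, and the Slc7a11 to Slc3a2 ratio is lower in every one.

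Gpx1 and Gpx4 encode glutathione peroxidases that are selenoproteins. Gpx4, which reduces lipid peroxides in membranes and restrains ferroptosis (Entrez gene 625249; chromosome 10, 80047166 to 80056439), had 243, 247 and 218 CPM in panobinostat libraries 1, 5 and 6, and 186, 181 and 187 CPM in vehicle libraries 2, 3 and 4. The groups were apart, and Gpx4 rose 1.28-fold (log2 fold change 0.35 ± 0.09 SE, edgeR adjusted p = 0.031). The call was lost without any 1 vehicle library or without panobinostat library 5 (edgeR adjusted p from 0.077 to 0.12), with scaling by library size alone (0.071) and without a filter on low counts (0.051). A processed copy, Gpx4-ps2, is annotated and may share reads with Gpx4.

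Gpx1, the main cytosolic glutathione peroxidase (Entrez gene 14775; chromosome 9, 108339080 to 108340342), had 1924, 1189 and 1313 CPM in panobinostat libraries 1, 5 and 6, and 1291, 1276 and 1371 CPM in vehicle libraries 2, 3 and 4. Panobinostat library 1 stood above all others and the remaining 5 libraries overlapped. Gpx4 reads per Gpx1 read were 0.126, 0.208 and 0.166 with panobinostat and 0.144, 0.142 and 0.136 with vehicle. This ratio overlapped between the groups (exact permutation p = 0.4). Gpx1 did not pass (log2 fold change 0.17, 95% interval -0.25 to 0.59, edgeR adjusted p = 0.53), and its log2 fold change was -0.07 without panobinostat library 1 (0.58). Prdx2, the peroxiredoxin of red cells, was also highest in panobinostat library 1, with 1013, 399 and 493 CPM with panobinostat and 579, 527 and 587 CPM with vehicle, while libraries 5 and 6 lay below every vehicle library. Sod1, the cytosolic superoxide dismutase, had 417, 236 and 243 CPM with panobinostat and 222, 223 and 221 CPM with vehicle, and neither gene passed (edgeR adjusted p = 0.73 for Prdx2 and 0.20 for Sod1). Without library 1 the log2 fold change of Prdx2 was -0.34 (edgeR adjusted p = 0.059). Panobinostat library 1 also held the highest share of hemoglobin counts, 6.72% against 3.71% and 3.22% in libraries 5 and 6 and 0.614% to 0.847% with vehicle. Of 13 tested erythroid markers 11 rose (84.6%, against 21.0% of all genes), and none of the list was at 0 in all libraries. The part of erythroid RNA in these levels was not tested.

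Nqo1, a quinone reductase used as a standard readout of NRF2 (Entrez gene 18104; chromosome 8, 107388225 to 107403205), had 68.1, 62.5 and 57.2 CPM in panobinostat libraries 1, 5 and 6, and 40.5, 38.2 and 40.7 CPM in vehicle libraries 2, 3 and 4. Vehicle libraries were close together and all treated libraries stood above them. Nqo1 rose to 62.6 ± 5.43 CPM with panobinostat, against 39.8 ± 1.38 CPM with vehicle (SD, n = 3 each), 1.57-fold higher (log2 fold change 0.65 ± 0.10 SE, edgeR adjusted p = 0.0074). With Txnip, Nqo1 is the other gene of the 10 that was called higher under all 14 alternatives (1.46-fold to 1.64-fold, adjusted p at most 0.048).

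Levels can be compared between the genes per kilobase of the longest GENCODE principal transcript. With panobinostat the order of mean CPM per kilobase was Gpx1 at 1376, Txnip at 561, Gpx4 at 246, Txn1 at 153, Prdx1 at 104, Nqo1 at 40.3, Txnrd1 at 40.1, Gclm at 26.8, Gclc at 15.5 and Slc7a11 at 9.92. With vehicle it was Gpx1 at 1224, Txnip at 229, Txn1 and Gpx4 at 193, Prdx1 at 138, Txnrd1 at 44.5, Nqo1 at 25.6, Gclc at 18.9, Gclm at 14.5 and Slc7a11 at 14.4. Neighbours within their spread between libraries were Nqo1 and Txnrd1 with panobinostat, and Txnip (± 50.3 SD), Txn1 (± 7.78) and Gpx4 (± 3.13), and Gclm and Slc7a11, with vehicle. The ranking depends on the length used: per kilobase of all annotated exons, Gpx4 was at 107 and Prdx1 at 104 with vehicle.

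**Figure D3:**
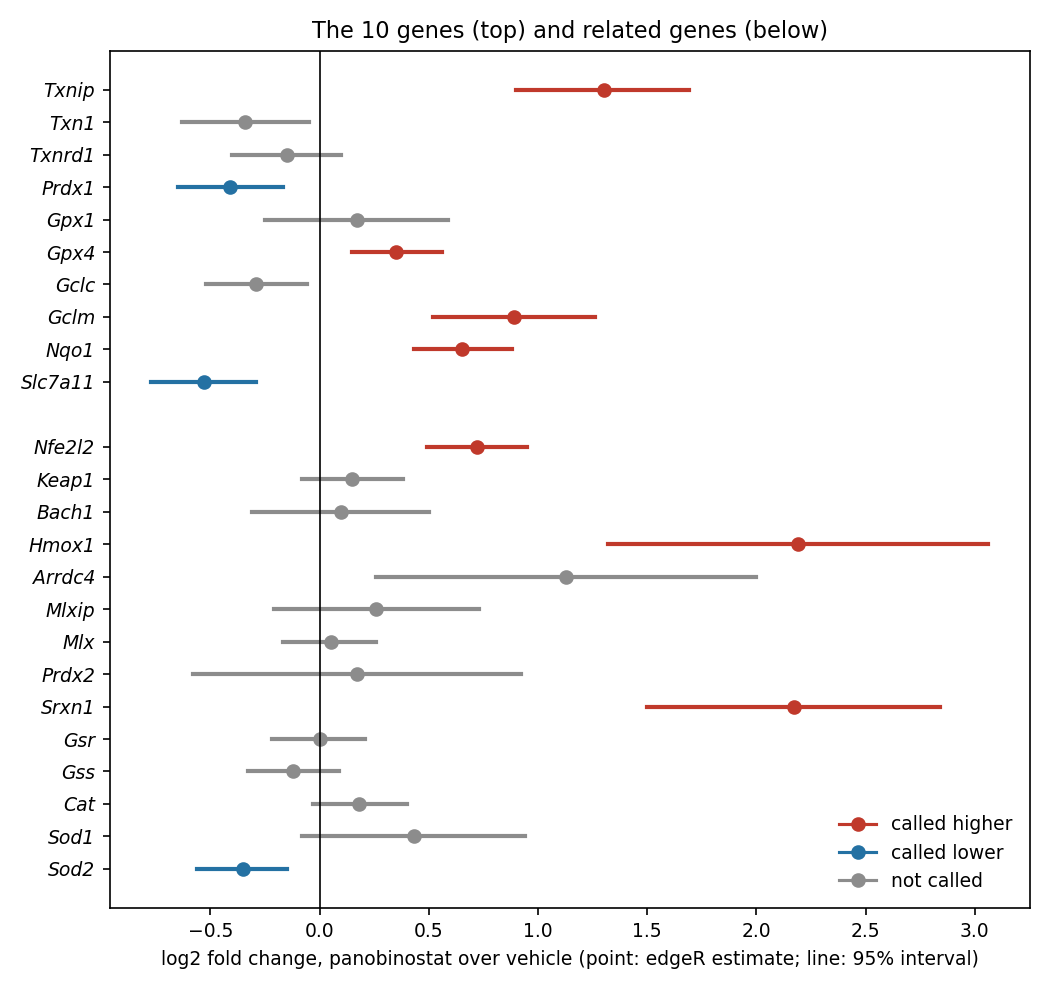
Log2 fold change of panobinostat over vehicle (horizontal axis; point: edgeR estimate, line: 95% interval for each gene alone) for the 10 genes above the gap and for related genes below it. Red marks genes called higher, blue genes called lower and grey genes not called. Txnip, Gclm, Nqo1 and Gpx4 lie right of 0 with Nfe2l2, Hmox1 and Srxn1, and Prdx1 and Slc7a11 lie left of it with Sod2.

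Among the regulators of NRF2, 4 of 14 tested genes rose and 1 fell (35.7%, against 21.0% of all genes; median log2 fold change 0.08; 1 higher without vehicle library 2 or 4, and 2 lower without panobinostat library 1). Nfe2l2, which encodes NRF2, had 200, 221 and 198 CPM with panobinostat and 113, 130 and 133 CPM with vehicle, 1.65-fold higher with no overlap (edgeR adjusted p = 0.0063). Keap1, the adaptor that marks NRF2 for destruction, was at 77.9 ± 7.56 CPM with panobinostat and 70.4 ± 3.66 CPM with vehicle, and this missed the threshold (edgeR adjusted p = 0.32). Bach1, a repressor at the same elements, had 72.4, 114 and 101 CPM with panobinostat and 79.5, 99.5 and 89.3 CPM with vehicle (edgeR adjusted p = 0.72), with a log2 fold change of -0.01 under scaling by library size alone and -0.05 without panobinostat library 5. The small partner Mafg and the autophagy receptor Sqstm1, which binds KEAP1, rose 1.71-fold and 1.76-fold (edgeR adjusted p = 0.014 for both), and both were lost without vehicle library 2 or 4 (0.052 to 0.076). Mafk was the fourth to rise. Bach2, a relative of Bach1 best known from lymphocytes, had a log2 fold change of -1.54 ± 0.21 SE (edgeR adjusted p = 0.0065).

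Of 21 tested further NRF2 target genes 7 rose and 2 fell (42.9%, against 21.0% of all genes; median log2 fold change 0.31 against 0.01). Leaving out vehicle library 2, 3 or 4 gave 3, 4 and 2 genes that rose and 0 that fell, and leaving out panobinostat library 5 or 6 gave 1 that fell. Hmox1, the heme-degrading enzyme, had 20.3, 21.3 and 9.27 CPM with panobinostat and 4.75, 3.83 and 2.50 CPM with vehicle, 4.58-fold higher (edgeR adjusted p = 0.011; 0.056 without vehicle library 4). Hmox1 also marks red pulp macrophages. The other 13 macrophage markers summed to 70.8, 37.3 and 25.3 CPM in panobinostat libraries 1, 5 and 6, and 28.6, 19.2 and 22.5 CPM in vehicle libraries 2, 3 and 4, so the groups overlapped. Of 11 tested markers of that list all had a positive log2 fold change (median 1.39), and none was at 0 in all libraries. Vcam1 and Hmox1 rose (18.2%, near the 21.0% of all genes). Spic, a defining factor of red pulp macrophages, was at 2.02, 0.686 and 0.315 CPM with panobinostat and 0.614, 0.106 and 0.171 CPM with vehicle. The part of macrophages in the Hmox1 result was not tested.

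Taldo1, the transaldolase of the pentose phosphate route, had 693, 705 and 597 CPM with panobinostat and 304, 308 and 317 CPM with vehicle, 2.14-fold higher (edgeR adjusted p = 0.0028). G6pdx, which makes the first NADPH of that route, rose 1.24-fold (edgeR adjusted p = 0.035). Pgd, which makes the next, and the transketolase Tkt of the same route fell, with log2 fold changes of -0.41 for both (edgeR adjusted p = 0.021 and 0.029). Idh1, another source of NADPH, was at 28.5 ± 6.81 CPM with panobinostat and 26.9 ± 0.738 CPM with vehicle (SD, n = 3 each; edgeR adjusted p = 0.78), and Me1, at 0 to 6 counts per library, was not tested. The list's remaining rises were Srxn1, Abcc1, Esd and the ferritin light chain Ftl1, whose call was lost without vehicle library 2 (edgeR adjusted p = 0.057) or 4 (0.079).

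Of 22 tested thioredoxin and peroxiredoxin genes beside the 10, 4 rose and 2 fell (27.3%, against 21.0% of all genes), with 2 higher without vehicle library 4 and 4 lower without panobinostat library 1. Beside Srxn1 these were Prdx5, a peroxiredoxin of mitochondria and cytosol, and the sestrins Sesn1 and Sesn2, at 1.30-fold, 1.66-fold and 2.24-fold (edgeR adjusted p = 0.037, 0.0066 and 0.014). The genes that fell act in the endoplasmic reticulum: Prdx4 at 31.8 ± 2.54 CPM with panobinostat and 51.7 ± 3.02 CPM with vehicle, and the disulfide isomerase Txndc5 at 75.4 ± 4.73 and 129 ± 3.12 CPM (SD, n = 3 each; edgeR adjusted p = 0.0070 and 0.0041). Mitochondrial Prdx3 was at 612 to 678 CPM with panobinostat and 598 to 683 CPM with vehicle, with a log2 fold change of 0.00 (edgeR adjusted p = 0.99). Mitochondrial Txn2 did not pass, with 98.8 to 117 CPM against 125 to 132 CPM (edgeR adjusted p = 0.10).

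Of 17 tested genes of glutathione synthesis, recycling and breakdown 1 rose and 2 fell (17.6%, near the 21.0% of all genes). Gss, which completes glutathione, was at 38.1 ± 2.19 CPM with panobinostat and 41.4 ± 1.26 CPM with vehicle, and Gsr, which recycles it, at 78.4 ± 4.08 and 78.5 ± 5.79 CPM (edgeR adjusted p = 0.37 and 0.98). Ggt7, a member of the gamma-glutamyl transferase family, rose 2.18-fold (edgeR adjusted p = 0.011; 0.062 without vehicle library 4). Ggct and Glo1, which act in glutathione breakdown and in methylglyoxal removal, fell with log2 fold changes of -0.70 and -0.46 (edgeR adjusted p = 0.030 and 0.028), and both calls were lost without any 1 vehicle library or panobinostat library 5 or 6 (0.051 to 0.12).

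Of 16 other glutathione peroxidases and transferases 4 rose and 2 fell (37.5%, against 21.0% of all genes; median log2 fold change 0.54), with 2 higher without any 1 vehicle library and 1 lower in each of the 6 leave-outs. The theta-class transferases Gstt1 and Gstt2 rose from low levels, and were at 2.90, 2.34 and 1.55 CPM and 2.90, 2.70 and 1.89 CPM with panobinostat, against 0.106 to 0.259 CPM and 0.248 to 0.420 CPM with vehicle. Their log2 fold changes were 3.71 ± 0.43 and 2.92 ± 0.33 SE (edgeR adjusted p = 0.0043 and 0.0042). Vehicle libraries held only 3 to 8 counts of Gstt1 and 7 to 13 of Gstt2. Both thus passed the filter on low counts through the panobinostat libraries, and the list's count and median include them. Gstk1 rose 2.26-fold (edgeR adjusted p = 0.030), a call lost without any 1 vehicle library (0.091 to 0.11), and Gpx3 lay at the edge of the threshold (0.0497). Gsto1, an omega-class transferase, fell to 38.2 ± 1.93 CPM with panobinostat, against 58.1 ± 1.79 CPM with vehicle (SD, n = 3 each; edgeR adjusted p = 0.0068). Gstm2 was the other that fell. It held 5 to 6 counts per panobinostat library and passed the filter through the vehicle libraries (13 to 33 counts).

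Of 8 tested genes in the list of alpha-arrestins, MondoA-Mlx and the glucose transporters Slc2a1 and Slc2a3, 1 rose, which was Slc2a1 (12.5%, against 21.0% of all genes). The other 7 (Arrdc1, Arrdc2, Arrdc3, Arrdc4, Mlxip, Mlx and Slc2a3) did not pass, and all 8 had a positive log2 fold change in this fit (median 0.46). For the list, DESeq2 gave 3 calls, leaving out panobinostat library 1 gave 3, and leaving out any 1 vehicle library gave 0. Arrdc4, the alpha-arrestin that shares the MondoA-Mlx input in other cells, had 1.92, 1.61 and 2.43 CPM with panobinostat and 0.646, 0.674 and 1.41 CPM with vehicle. The groups did not overlap, and the 2.19-fold difference did not pass (edgeR adjusted p = 0.070). Mlxip, which encodes MondoA, was at 59.7, 106 and 95.8 CPM with panobinostat and 72.9, 76.7 and 68.5 CPM with vehicle (edgeR adjusted p = 0.38; 0.0096 without panobinostat library 1). Mlx was at 42.7 ± 1.35 CPM with panobinostat and 41.4 ± 2.78 CPM with vehicle (edgeR adjusted p = 0.75), with a log2 fold change of -0.06 under scaling by library size alone and -0.00327 without vehicle library 2. Mlxipl, the liver-type relative of MondoA, had 0 to 8 counts per library and was not tested. The glucose transporter gene Slc2a1, whose protein TXNIP helps to remove from the cell surface, was called, at 419, 205 and 248 CPM with panobinostat and 98.4, 136 and 129 CPM with vehicle (2.39-fold, edgeR adjusted p = 0.020), and the call was lost without any 1 vehicle library (0.051 to 0.088).

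**Figure D4:**
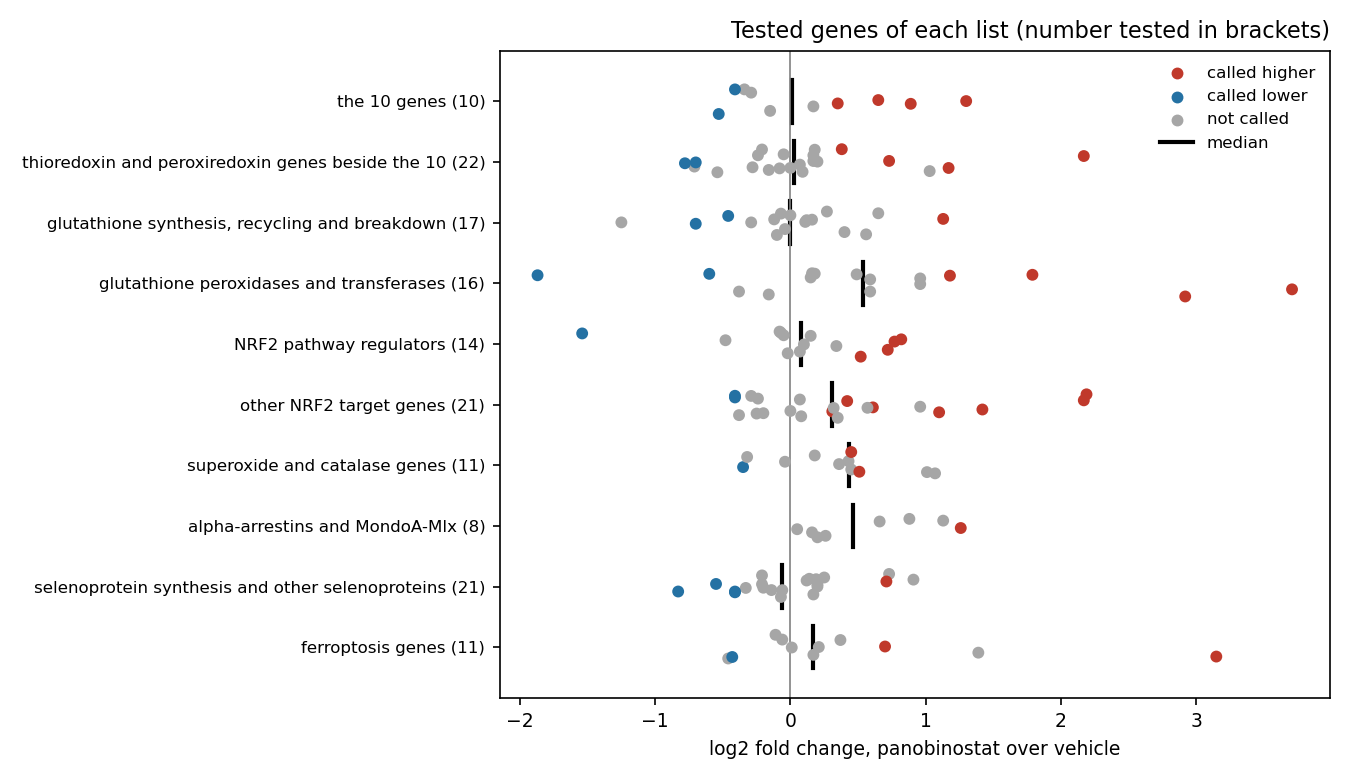
Log2 fold change of panobinostat over vehicle (horizontal axis) of each tested gene in the 10 genes and in 9 related lists (rows, number tested in brackets). Red points are called higher, blue points called lower, grey points not called, and black lines are list medians. The 9 related lists hold from 8 to 22 tested genes each, and genes called lower appear in every list except that of alpha-arrestins and MondoA-Mlx.

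Because Gpx1, Gpx4 and Txnrd1 are selenoproteins, the machinery that inserts selenocysteine and other selenoproteins were counted: 1 of 21 tested genes rose and 4 fell (23.8%, near the 21.0% of all genes; median log2 fold change -0.06). Selenow rose 1.64-fold (edgeR adjusted p = 0.012) and the nuclear Selenoh was at 33.7 ± 5.93 CPM with panobinostat and 59.8 ± 5.12 CPM with vehicle (SD, n = 3 each; edgeR adjusted p = 0.012). Both calls were lost without vehicle library 2 or 4 (edgeR adjusted p from 0.058 to 0.069). Selenof, Selenoi and Selenos were the others that fell, and without vehicle library 2 or 4 the list held 0 genes called in either direction. It held 3 higher without panobinostat library 1, and 1 lower without panobinostat library 5 or vehicle library 3 and 2 lower without panobinostat library 6.

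The genes whose 6 values were most like those of Txnip were found by the root mean square difference of log2 levels centred on each gene's own mean, among 9386 genes whose mean reached 5 CPM. They were the kinase gene Mak (0.07), the lysosomal protease gene Lgmn (0.10), and Znfx1, Parp14 and Ifi47 (0.13 each), against a median of 0.72 over the ranked genes. Mak had 11.3, 12.1 and 12.4 CPM in panobinostat libraries 1, 5 and 6, and 3.49, 5.46 and 5.14 CPM in vehicle libraries 2, 3 and 4. Lgmn had 149, 136 and 132 CPM with panobinostat and 36.5, 63.7 and 57.4 CPM with vehicle. In both, as in Txnip, vehicle library 2 was the lowest and the treated libraries were close together. This likeness follows from how the genes were chosen and adds no support. All 5 are compared over the same 6 libraries and share their treatment difference.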

How the data were processed

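RNA of sorted leukemia cells was sequenced in 6 libraries, 3 panobinostat and 3 vehicle. The authors deposited raw read counts, keyed by Entrez gene ID, as whole numbers. Per the submitters' processing notes, the tools include cutadapt 2.1, HISAT2 2.1.0 and featureCounts of Subread 2.0.0, and the build is mm10. The sources used here name no annotation, strand or multi-mapping setting. Column names give the group, a leading number and further numbers of unstated meaning, and tie no column to a replicate number. Names and positions came from RefSeq for GRCm38, the assembly of mm10 (25275 genes; 18 more from GENCODE M21, 1886 without a name), and 0 columns were unused.

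Genes had to pass edgeR's filterByExpr, libraries were scaled by TMM, and panobinostat was compared with vehicle by edgeR 4.0.16's quasi-likelihood F test in R 4.3.3, treatment being the only term. Standard errors are the log2 fold change over the square root of F, and intervals use the fit's total degrees of freedom. The smallest 2-sided p of an exact permutation test here is 0.1. Alternatives were DESeq2 1.42.0, limma-voom (limma 3.58.1), 3 normalizations, 2 filters, leaving out each library and, added after the data were seen, a fit without erythroid list genes. A bare number in brackets after an adjusted p is a further adjusted p of the same test.

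The 10 genes and all lists were chosen with earlier results of these data known. Named were all 10, 15 regulators and enzymes, up to 4 called genes of each list by smallest p, and the 5 genes most like Txnip. Others, such as Mafk, Prdx5, Sesn2, G6pdx, Pgd, Tkt, Abcc1, Esd, Gpx3, Gstm2, Selenos, Slc3a2, Prdx3, Txn2, Idh1, Me1, Slc2a3, Arrdc1, Arrdc2, Arrdc3, Pecam1, Kdr, Pdgfrb, Bst2, Ccr2, Spic and Vcam1, were chosen after their values were seen. Of the genes the rule gave, 1 is not reported here.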

Additional observations from a re-analysis of the deposited data

How the results depend on the processing

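No paired analysis was possible because the count columns name a group and are tied to no replicate number. The replicate block planned from the labels was therefore not run. Each column name holds further numbers after the leading number, and the sources used here do not give their meaning. The last of these numbers was the same in every library except panobinostat library 1. Whether that label marks a difference between the libraries was not tested. Over the 54 tested genes that the naming rule gave, 661 of 755 values under the alternatives kept their direction and their side of the threshold, 80 lost the call, 4 gained one and 10 changed sign. Scaling by library size alone gave 2065 genes called lower over all genes, against 1255, and 4 of the 10 genes called lower, against 2, and shifted the share of higher genes among calls to 35.5%, against 53.8%. Leaving out 1 library at a time gave 303 to 2192 genes called higher and 135 to 1864 called lower over all genes, and 2 to 4 higher and 0 to 3 lower among the 10. The sign changes were all in genes that did not pass, and their log2 fold changes over the 6 leave-outs ran from -0.0679 (without panobinostat library 1) to 0.302 for Gpx1, from -0.339 (without panobinostat library 1) to 0.415 for Prdx2, from -0.0469 (without panobinostat library 5) to 0.263 for Bach1, from -0.00327 (without vehicle library 2) to 0.0927 for Mlx, and from -0.0447 to 0.0566 for Gsr. Gsr was above 0 with panobinostat library 1 left out (0.0335), with panobinostat library 6 left out (8.28e-04), with vehicle library 2 left out (0.0566) and with a filter of 1 CPM in 3 libraries (0.00719), while scaling by library size alone gave -0.00549 for Bach1 and -0.0586 for Mlx. The cause was not tested. A fit without erythroid list genes gave 4 higher and 2 lower among the 10, as with them. That fit dropped the listed genes and left the counts of the 10 as they were. The part of erythroid RNA in the 10 was therefore not tested by it.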

Other observations

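Genes of lipid peroxidation and of superoxide handling stood beside the glutathione peroxidases. Of 11 tested ferroptosis genes 2 rose and 1 fell (27.3%, against 21.0% of all genes; median log2 fold change 0.17). Alox5, the leukotriene-forming lipoxygenase, was at 535 ± 69.2 CPM with panobinostat and 330 ± 71.4 CPM with vehicle (SD, n = 3 each; edgeR adjusted p = 0.031), a call lost without vehicle library 2 or 4 (0.12 for both) or panobinostat library 5 (0.073). Alox12 and Dhodh were the others called, and both calls were lost with limma-voom (0.070 and 0.051). That of Alox12 was also lost without any 1 vehicle library or panobinostat library 5 (edgeR adjusted p from 0.072 to 0.15), and that of Dhodh in each of the 6 leave-outs (0.053 to 0.15), with RLE scaling, with either other filter and without the erythroid list genes. Alox12 held 2 to 8 counts per vehicle library and 16 to 79 per panobinostat library. It thus passed the filter on low counts through the panobinostat libraries. Acsl4, which loads membranes with oxidizable lipids, had 74.9, 111 and 101 CPM with panobinostat and 131, 132 and 133 CPM with vehicle, short of the threshold (edgeR adjusted p = 0.060).

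Among genes of superoxide and catalase handling, Rac2, a small GTPase of the NADPH oxidase, rose 1.43-fold (edgeR adjusted p = 0.018), and Sod2, the mitochondrial superoxide dismutase, fell to 72.3 ± 5.11 CPM with panobinostat, against 92.4 ± 3.30 CPM with vehicle (SD, n = 3 each; edgeR adjusted p = 0.030). Both calls were lost without vehicle library 2 (0.072 for Rac2 and 0.088 for Sod2) or vehicle library 4 (0.086 and 0.13), and that of Sod2 also without vehicle library 3 (0.082) or panobinostat library 5 (0.081). Cat, catalase, had 206, 201 and 183 CPM with panobinostat and 164, 184 and 172 CPM with vehicle, which did not pass (edgeR adjusted p = 0.20).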
